A study of Mus musculus with 6 samples.

Results

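The genes described here encode the proteasome, its regulatory particles and their assembly factors. They were taken as the rows of the array table whose gene name begins with Psma, Psmb, Psmc, Psmd, Psme, Psmf or Psmg, without the immunoproteasome subunits Psmb8, Psmb9 and Psmb10, and each gene was read from its brightest probe. The rule gave 44 genes with 78 probes, among 28903 genes and 45281 probes on the array. One of the 44, Psmc3ip, is a cofactor of meiotic recombination that the prefix takes in, and is not itself a part of the proteasome. Psmg1, a proteasome assembly chaperone, stands in the table under an older name and lies outside the rule, so it is described with the pathway genes.

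RNA on Illumina bead arrays came from Th17 cells, the interleukin 17-producing helper T cells, at days 2, 4, 7, 12 and 18 after activation with a peptide of TRP-1, a melanocyte protein, and in CD4+ T cells before activation (day 0). The samples share the strain label RAG1- BW TRP-1 TCR, which names loss of the RAG1 recombinase and a T cell receptor transgene against TRP-1, and an age of 6 weeks. Each of the 6 time points has 1 library, so no difference between days has a replicate check, and none carries an SD or a p-value. The culture conditions, the number of mice behind a library and any purification of the cells are not stated in the labels.

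The proteasome degrades proteins that carry ubiquitin chains. Its 20S core is a barrel of alpha rings, which gate the entrance, around beta rings, which hold the catalytic sites. The 19S regulatory particle caps the barrel: its base has a ring of ATPases that unfold substrates and push them into the core, and its other subunits bind and remove ubiquitin. Dedicated chaperones assemble both parts, and alternative caps of the Psme family open the core without an ATPase ring. In lymphocytes the catalytic subunits can be replaced by the interferon-inducible immunoproteasome subunits, which favour peptides for antigen presentation.

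Signals were background-corrected, quantile-normalized and put on the log2 scale, so that a difference of 1 means 2-fold. A gene was detected in a library where its detection p-value was below 0.01, which held for 13687 to 14258 probes per array. A gene is called higher or lower at 1.5-fold or 2-fold where the brighter library detected it, and an undetected dimmer library was set to that array's lowest detected signal. As a gauge of measurement error within a library, the difference between days was compared between a pair of probes of the same gene over 2398 genes. The SD of the disagreement was 0.388 to 0.435 log2 units for days 2 to 18 against day 0, 0.394 for day 18 against day 2, and 0.241 to 0.267 for successive days. This covers error that differs between the paired probes. Array error shared by both probes cancels in it, and the spread between cultures is not covered.

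The libraries at the start of the series also held transcripts of other blood cells. Of 11 erythroid markers on the array, 10 were detected at day 0, 6 at day 2 and 1 at day 18, Tfrc. That gene was detected in all 6 libraries and was highest at day 2 (11.83). The summed erythroid signal was 62371.3 at day 0, 26567.4 at day 2 and 1195.4 at day 18. Of 9 neutrophil markers, 9 were detected at day 0 and at day 2, with summed signals of 11924.5 and 32522.7, and 1 was detected at day 18, Ctsg, with 6822.4. The 10 macrophage markers had 9 detected at day 0, 10 at day 2 and 2 at day 18, with summed signals of 5440.6, 5688.1 and 89.6. At day 2 against day 0, 4 of them were higher and 6 lower, from -3.27 (Mrc1) to 2.47 (Lyz2). Of 5 B cell markers on the array 2 were detected, Cd79b in each of the 6 libraries (5.80 to 7.33 on the log2 scale) and Blnk at day 0 alone, while Ms4a1 and Pax5 were detected in none. Of 6 CD8 T and natural killer cell markers 4 were detected, Cd8b1 (9.89 to 10.29) and Klrd1 (8.25 to 11.51) in each of the 6 libraries, Klrb1c in 4 and Eomes in 2, while Cd8a and Ncr1 were detected in none. The 12 T cell identity genes were detected in each library, Cd4 among them, and their summed signals were 15318.3, 18937.1, 34824.9, 49102.8, 40311.9 and 42745.8 over days 0, 2, 4, 7, 12 and 18. In such bulk RNA, fewer cells of a type and less RNA per cell cannot be told apart, and the part of these other cells in the differences from day 0 and day 2 was not tested.

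Promoter sequences from RefSeq (GRCm38.p6), 250 bases before the transcription start, matched 36 of the 44 genes. They were searched on both strands for the antioxidant response element core TGACNNNGC, the element bound by Nfe2l1, a transcription factor known for raising proteasome genes, and for CCAAT, bound by the factor NF-Y. The first stood in 5 of 36 promoters (13.9%), those of Psmb5, Psmb6, Psmc6, Psmd12 and Psmd9, against 11.5% of 27025 genes. CCAAT stood in 14 of 36 (38.9%), against 37.5% of 27025 genes, so the share of members with either motif was close to that of genes in general. The promoters of Psmb5 and Psmd12, which had the largest increases of their groups at day 2, and of Psmb6, another catalytic subunit, are shown with the match to TGACNNNGC or its reverse complement in capitals. Of the other holders, Psmd9 had a difference of 0.04 at day 2 against day 0, and Psmc6 was undetected. Psmc1, with 0.66 at day 2, held no match. A match describes letters only, not a bound site, and a link between a match and the level was not tested.
Psmb5 (chr14:54617996-54618245, minus strand): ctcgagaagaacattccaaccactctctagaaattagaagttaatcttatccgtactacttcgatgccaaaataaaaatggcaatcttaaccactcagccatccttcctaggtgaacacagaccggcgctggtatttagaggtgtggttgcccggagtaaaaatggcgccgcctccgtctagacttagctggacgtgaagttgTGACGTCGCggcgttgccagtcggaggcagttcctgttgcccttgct
Psmb6 (chr11:70525107-70525356, plus strand): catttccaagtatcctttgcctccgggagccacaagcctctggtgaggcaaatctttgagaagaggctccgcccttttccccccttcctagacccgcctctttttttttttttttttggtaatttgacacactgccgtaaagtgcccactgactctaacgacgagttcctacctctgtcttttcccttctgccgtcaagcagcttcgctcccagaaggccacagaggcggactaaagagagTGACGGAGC
Psmd12 (chr11:107479278-107479527, plus strand): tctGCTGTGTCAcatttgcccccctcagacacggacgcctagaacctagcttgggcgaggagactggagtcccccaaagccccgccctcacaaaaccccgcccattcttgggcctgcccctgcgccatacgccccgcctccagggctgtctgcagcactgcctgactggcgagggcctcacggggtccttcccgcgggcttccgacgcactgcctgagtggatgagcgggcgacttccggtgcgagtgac

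At least 1 library detected 39 of the 44 genes, and 37 of them were detected by each of the 6. Psma1, Psma3 and Psma6 of the alpha ring, the ATPase gene Psmc6 and Psmb11, the catalytic subunit of thymic epithelium, were not well above background in any of the 6 libraries, with log2 signals between 4.16 and 4.74. The lowest detected signals of the arrays lay between 4.88 and 4.97. Psma1, Psma3, Psma6 and Psmc6 encode subunits of the standard particle, so the array gives no level for them rather than an absence. Psma8, an alpha subunit of testis, was detected at day 0 alone, at 5.01, and had undetected signals of 4.22 to 4.37 on the later days. Psmd6, a 19S lid subunit, was undetected at day 0, at 4.58, and detected at days 2 to 18 between 4.97 and 5.29.

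The proteasome genes moved little across the series. Over the 6 libraries, the distance between the lowest and the highest signal of a gene had a median of 0.57 log2 units for the 37 members detected throughout, against 0.86 for 8224 genes detected throughout. It ran from 0.25 for the ubiquitin receptor Psmd4 to 0.98, or 1.97-fold, for the assembly chaperone Psmg2. On its brightest probe, none of the 37 reached 2-fold between any 2 libraries, whereas 40.9% of the 8224 genes did, and so did 40.0% of the 3939 genes with a mean log2 signal of at least 8. A second, dimmer probe of Psmc4, detected in all 6 libraries, did pass 2-fold, with 1.30 at day 2 and 1.38 at day 7 against day 0. Over days 2 to 18 alone the count was again 0 of 37, with a widest range of 1.91-fold (Psmd7), against 29.2% of all genes. Without day 2 it was 0 of 37, against 35.5%. With each array scaled to its median instead of quantile normalization, 1 member, Psmd7, reached 2-fold, against 41.6% of all genes. With the arrays scaled on T cell identity genes, whose own signal differed between days, 37 of 37 members and 96.3% of all genes did, since that scaling moves the median of all genes by -0.37 at day 2 and by -1.34 at day 18 against day 0.

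**Figure D1:**
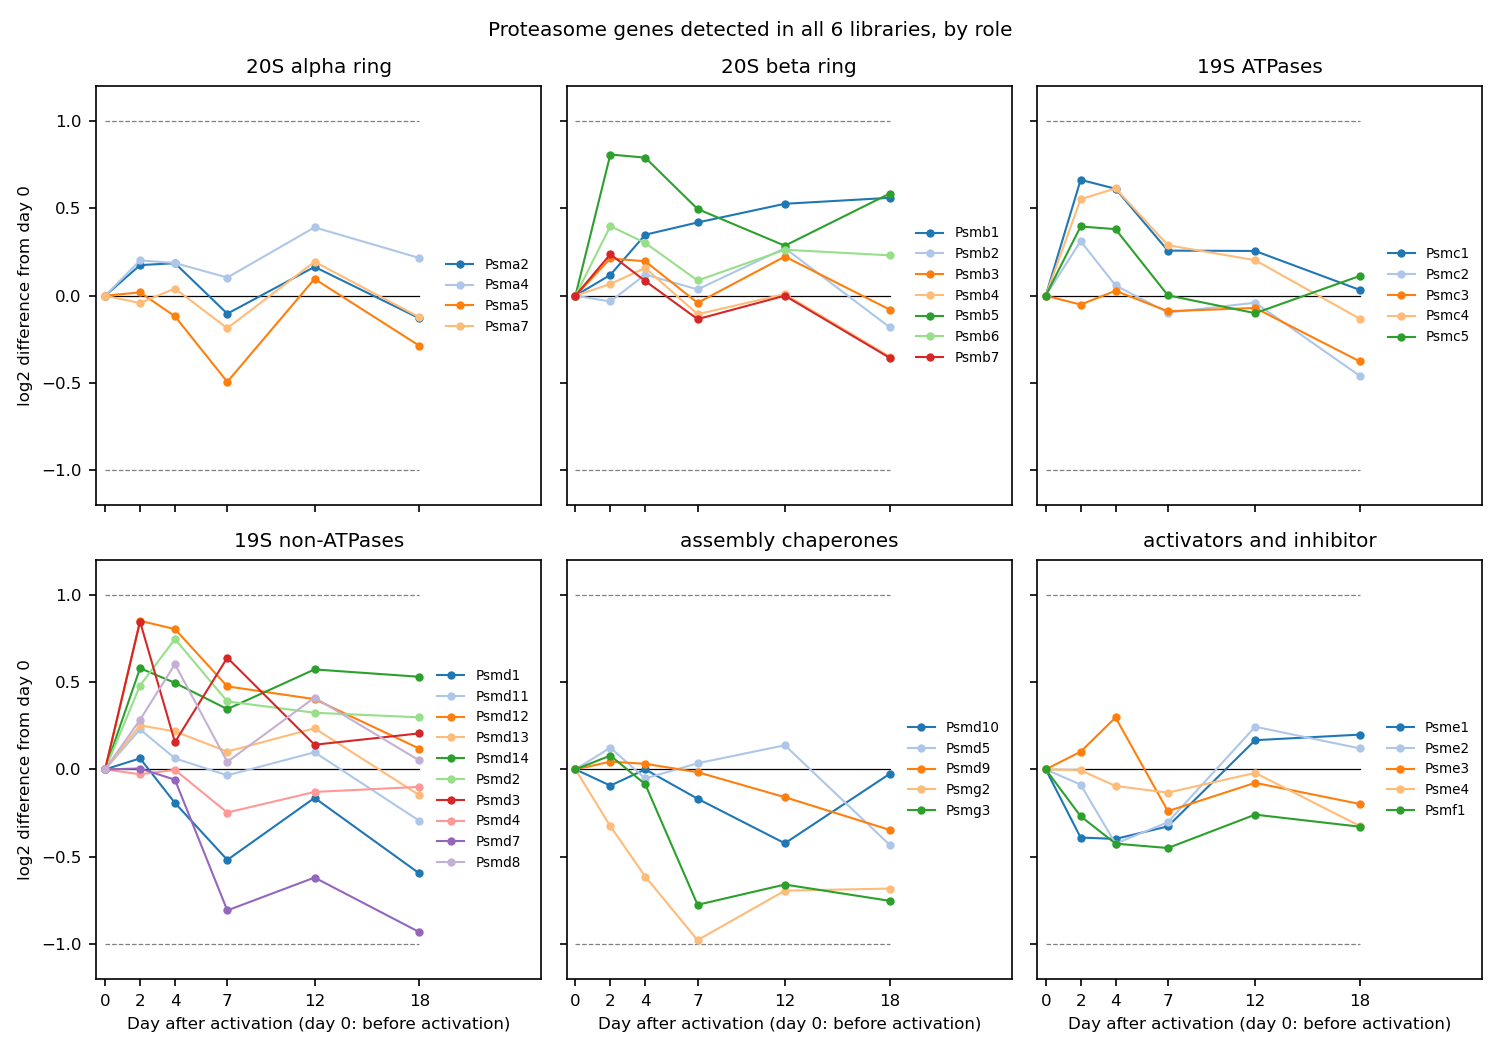
Normalized log2 signal at each day minus that of the same gene at day 0, for the proteasome genes detected in all 6 libraries, in panels by role. Points are single libraries at days 0, 2, 4, 7, 12 and 18, and dashed lines mark 2-fold. No line reaches 2-fold. Psmb5, Psmd12 and Psmd3 stand highest at day 2, and Psmg2, Psmd7 and Psmg3 lowest at day 7.

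On the quantile-normalized values, the days of highest and lowest signal were unevenly spread. These counts were not repeated under other scalings. Some highest days rest on small gaps, as for Psmd7, with 10.861 at day 2 and 10.856 at day 0. Of the 37 members, 15 (40.5%) had their highest signal at day 2 and 8 (21.6%) at day 4, against 18.4% and 12.1% of the 8224 genes. The lowest signal fell on day 18 for 16 members (43.2%; 17.3% of all genes) and on day 0 for 10 (27%; 25.6%). No member had its lowest signal at day 2 and none its highest at day 7, days that held 19.2% and 14.5% of all genes. The 19S lid and base subunits other than ATPases contributed 7 of 10 to the highest signals at day 2, and the alpha subunits 3 of 4 to those at day 12.

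At day 2 against day 0, 27 of 39 members had a positive difference, against 5879 of 11955 genes. The median was 0.12, against -0.01 over all genes. Relative to the median of all genes the members' median was 0.13 higher. With scaling by a constant per array in place of quantile normalization it was 0.24 higher, a value that does not depend on the constant, while its own sign turned to -0.13 with scaling on T cell identity genes. On the brightest probes no member was called at 2-fold, against 7.47% of 11955 genes higher and 8.97% lower. None was called at 2-fold on the later days against day 0 either, against 8.1%, 8.87%, 7.19% and 7.93% of all genes higher and 9.44%, 9.35%, 7.75% and 8.69% lower on days 4, 7, 12 and 18. At 1.5-fold 4 members were higher (10.3%) and 0 lower, against 15.2% and 17.1% of all genes. With scaling on array medians 8 were higher (20.5%), against 16.7% of all genes, so whether the members lay below or above the share of all genes depended on the scaling. The 4 were the catalytic subunit Psmb5, the ATPase gene Psmc1 and the lid subunits Psmd12 and Psmd3.

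At day 4 against day 0 the count at 1.5-fold was 6 higher (15.4%) and 1 lower, against 15.7% and 17.5% of all genes. Psmb5, Psmc1 and Psmd12 were again higher, joined by the ATPase gene Psmc4 (0.61), the scaffold subunit Psmd2 (0.75) and the lid subunit Psmd8 (0.60), and Psmg2 was the one lower. The second probe of Psmd8 went the other way, from 5.21 at day 0 to 5.03 at day 4, while that of Psmc4 went from 5.46 to 6.72. Psmd2 was dim, at 5.27 at day 0, where the lowest detected signal of the array was 4.88. Its second probe, detected in 4 libraries, had 4.84 at day 0 and 5.05 at day 4. At day 7 against day 0, 1 member was higher (Psmd3) and 3 were lower (Psmd7, Psmg2 and Psmg3), against 16.8% and 18.2% of all genes. The same 3 were lower at day 12 with 0 higher (14.5% of all genes in each direction). At day 18 they were lower with Psmd1 as the fourth, with 0 higher, against 15.9% of all genes lower and 16.4% higher. These 5 comparisons share the day 0 library.

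Day 18 was also set against day 2, a comparison without the day 0 library. Of 39 members, 33 had a negative difference, against 5919 of 11955 genes, and the median was -0.30, against 0.00 over all genes. The sign of the median held under 3 alternative scalings, with -0.29 for median scaling, -0.08 for scaling on reference genes and -1.35 for scaling on T cell identity genes, while the median of all genes was 0.11, 0.32 and -0.95. At 2-fold 0 members were called, against 8.9% of all genes higher and 7.95% lower. At 1.5-fold 9 members were lower (23.1%) and 1 higher, against 16.1% and 17.5% of all genes, and with scaling on reference genes 3 were lower (7.7%) and 2 higher (5.1%), against 10.7% and 27.2%, so the members then lay below the share of all genes in both directions. The 11 reference genes detected had a median of -0.44 in the same comparison. With day 4, which held fewer macrophage and erythroid transcripts, in place of day 2, 31 of 39 members were negative (5947 of 11955 genes). The median was -0.30, against 0.00 over all genes. At 1.5-fold 5 members were lower (12.8%) and 1 higher, against 14.2% and 15.6% of all genes.

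**Figure D2:**
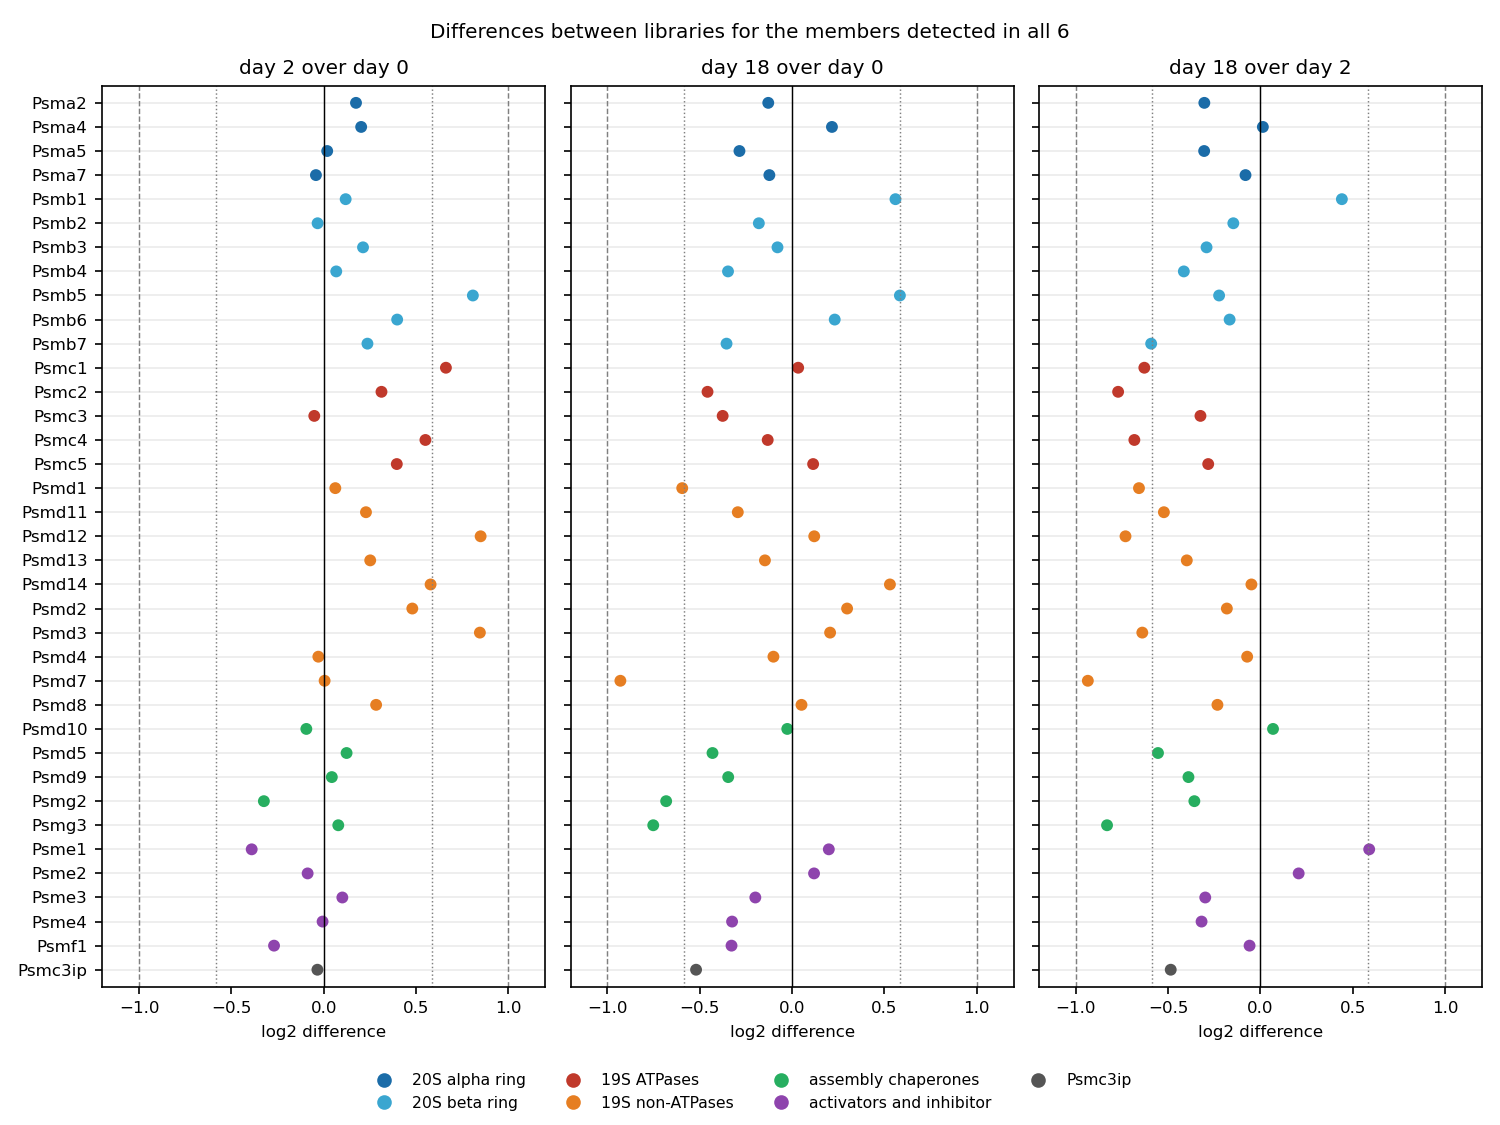
Log2 difference of normalized signal for each member detected in all 6 libraries, at day 2 over day 0, day 18 over day 0 and day 18 over day 2, coloured by role. Each point is the difference of 2 single libraries, and vertical lines mark 1.5-fold (dotted) and 2-fold (dashed). At day 18 over day 2 the 19S ATPases lie between -0.28 and -0.77, and Psme1 is the highest at 0.59.

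Between successive days, differences past 1.5-fold were few. Psmd3 was lower at day 4 than at day 2 with 0 higher (6.13% of all genes lower, 5.55% higher). Psmd7 and Psmg3 were lower at day 7 than at day 4 with 0 higher (7.98% and 8.69%). Psma5 was higher at day 12 than at day 7 with 0 lower (6.73% and 7.34%), and no member passed at day 18 against day 12 (5.35% higher and 5.39% lower). The medians of the 39 members over these 4 steps were -0.02, -0.22, 0.12 and -0.22. At day 7 against day 4, 33 of 39 were negative, and at day 12 against day 7, 28 of 39 were positive. These step medians and signs are given without those of all genes. They were not recomputed under other scalings, so whether they are particular to the members was not tested.

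**Figure D3:**
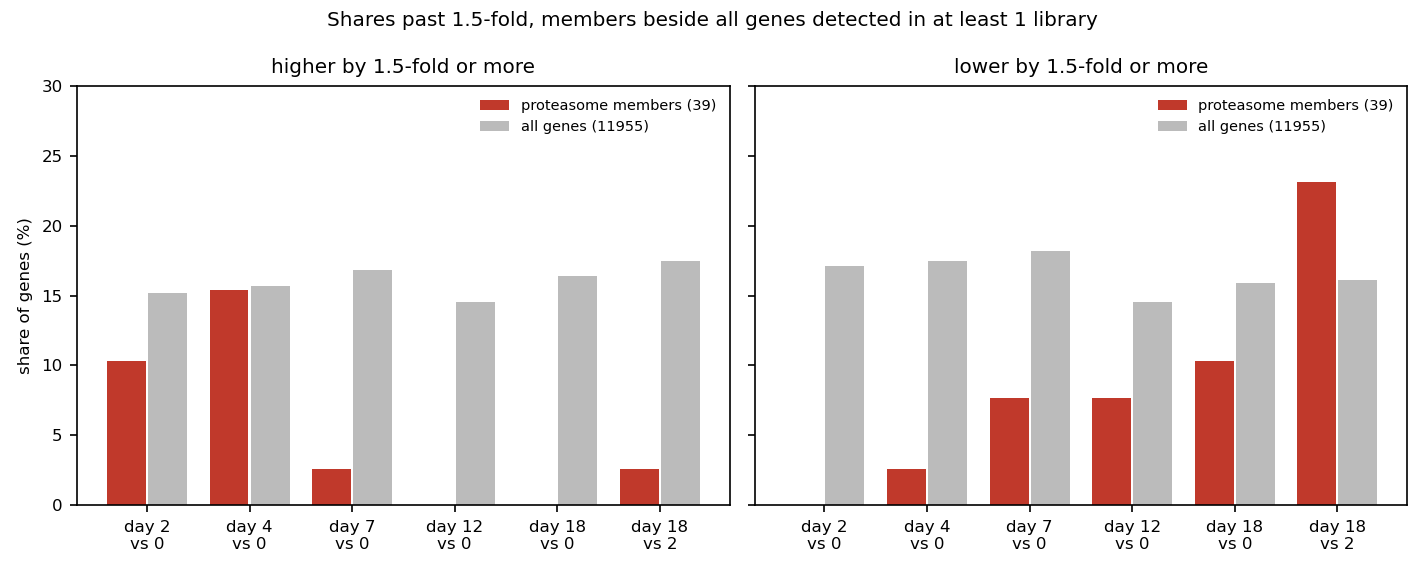
Share of genes higher (left) or lower (right) by at least 1.5-fold in each comparison, in percent, for the 39 detected members (red) and the 11955 detected genes (grey). Bars count genes between 2 single libraries. The members exceed the share of all genes in 1 of the 12 pairs of bars, lower at day 18 against day 2, with 23.1% and 16.1%.

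The alpha ring subunits detected throughout, which form the gate of the core, had narrow ranges of 0.32 to 0.59 log2 units. Psma5 had log2 signals of 12.70, 12.72, 12.58, 12.21, 12.80 and 12.41 on days 0, 2, 4, 7, 12 and 18. Day 7 was its low point, and day 12 over day 7 was 0.59. Psma4 had 11.58, 11.78, 11.76, 11.68, 11.97 and 11.79 over days 0, 2, 4, 7, 12 and 18, so day 0 was lowest and the 6 values spanned 1.31-fold. Of the 5 detected alpha genes, 0 passed 1.5-fold at any day against day 0. Of all genes, 14.5% to 16.8% were higher and 14.5% to 18.2% lower on these days. Psma8 could not pass under the rule. Its undetected days were set to the lowest detected signals, which left differences of -0.042 to -0.125.

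The 3 constitutive catalytic subunits differed in shape. Psmb5, the chymotrypsin-like site, had log2 signals of 9.24, 10.05, 10.03, 9.74, 9.53 and 9.82 on days 0, 2, 4, 7, 12 and 18. Day 0 was lowest, and the log2 differences from it were 0.81 at day 2 and 0.58 at day 18, the second just under the 1.5-fold rule. Before normalization its signals were 777.8, 1096.4, 1222.8, 1003.7, 804.1 and 712.5 in the same order, so the order of days 0 and 18 was turned by the normalization.

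Psmb6, the caspase-like site, had 10.85, 11.24, 11.15, 10.93, 11.11 and 11.08 over days 0, 2, 4, 7, 12 and 18. Its range was 1.32-fold, with day 0 again lowest. Psmb7, the trypsin-like site, had 11.72, 11.96, 11.81, 11.59, 11.72 and 11.37 on days 0, 2, 4, 7, 12 and 18, and was highest at day 2 and lowest at day 18, a 1.51-fold difference. Each of its 4 probes gave -0.59 to -0.64 for day 18 against day 2. RefSeq names pseudogenes after Psmb5, Psmb6, Psmb7 and Psma5, and whether their transcripts reach these probes was not tested.

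Psmb1, a beta subunit without a catalytic site, had 11.40, 11.52, 11.75, 11.82, 11.93 and 11.96 over days 0, 2, 4, 7, 12 and 18. Each library was above the one before it, to 1.47-fold at day 18 over day 0, with each step within the probe disagreement. Before normalization the signals were 2974.6, 2961.7, 3871.2, 4059.7, 3986.0 and 3185.8, so the unbroken order belongs to the normalized values. The beta ring as a whole had a median of 0.21 at day 2 against day 0 and of -0.22 at day 18 against day 2, over 7 genes, and kept both signs under 3 alternative scalings (0.02 to 0.49 and -0.06 to -1.32).

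**Figure D4:**
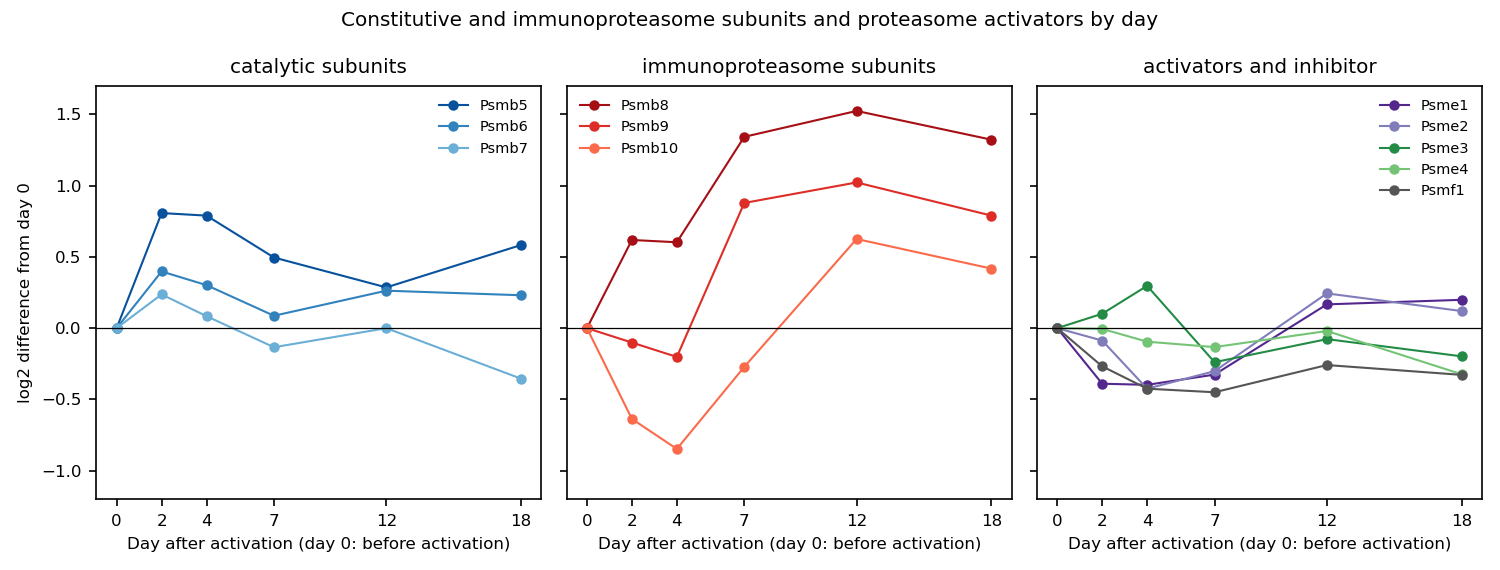
Log2 difference from day 0 by day for the constitutive catalytic subunits (left), the immunoproteasome subunits that can take their place (middle) and the proteasome activators with the inhibitor Psmf1 (right). Points are single libraries. Psmb5 is 0.81 above day 0 at day 2, the 3 immunoproteasome subunits are highest at day 12, and Psme1 and Psme2 lie below day 0 at days 2 to 7 and above it at days 12 and 18.

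The immunoproteasome subunits, left out by the rule, followed another course. Psmb8, which takes the place of Psmb5, had 11.24, 11.86, 11.84, 12.58, 12.77 and 12.56 on days 0, 2, 4, 7, 12 and 18. Psmb9, in place of Psmb6, had 10.59, 10.49, 10.39, 11.47, 11.61 and 11.38 on the same days, and Psmb10, in place of Psmb7, had 11.34, 10.70, 10.49, 11.07, 11.97 and 11.76. Their median difference from day 0 was -0.10 at day 2 and 1.02 at day 12; the second was 1.11 and 1.15 with scaling on array medians and on reference genes, and turned to -0.29 with scaling on T cell identity genes, where the median of all genes was -1.36. At day 18 against day 2 the 3 were higher by at least 1.5-fold, against 17.5% of all genes, while Psmb5, Psmb6 and Psmb7 had differences of -0.22, -0.17 and -0.59. The median of the 3 immunoproteasome subunits there was 0.89. It turned to -0.18 with scaling on T cell identity genes, against -0.95 over all genes.

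Of the 5 detected ATPases of the 19S base, the ring that unfolds substrates, 4 lay above day 0 at day 2, and 1 of them (Psmc1) by 1.5-fold (15.2% of all genes). Psmc1 had log2 signals of 9.28, 9.94, 9.89, 9.53, 9.53 and 9.31 over days 0, 2, 4, 7, 12 and 18. Psmc4 had 10.48, 11.03, 11.09, 10.77, 10.68 and 10.35 on days 0, 2, 4, 7, 12 and 18, and Psmc2 had 12.13, 12.45, 12.19, 12.04, 12.10 and 11.68. Days 2 and 4 were the highest libraries for Psmc1, Psmc4 and Psmc2, and day 18 was the lowest for Psmc4 and Psmc2. Psmc5 had 10.41, 10.81, 10.79, 10.41, 10.31 and 10.53 in the same order, and Psmc3 had 10.56, 10.51, 10.59, 10.47, 10.49 and 10.18, with days 0 to 12 level. The 5 detected ATPase genes had a median of 0.40 at day 2 against day 0 and of -0.63 at day 18 against day 2, where 5 of 5 were negative and 3 passed 1.5-fold (Psmc1, Psmc2 and Psmc4), against 16.1% of all genes. Both medians kept their sign under 3 alternative scalings, at 0.15 to 0.61 and -0.52 to -1.79. With day 4 in place of day 2, 5 of 5 were negative and 1 passed (Psmc4), against 14.2% of all genes. These counts use the brightest probes. For day 18 against day 2, the second probes of Psmc2, Psmc4 and Psmc5 gave -0.319, -0.584 and -0.698. Of these, only that of Psmc5 passed 1.5-fold.

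Among the other 19S subunits, Psmd12, a lid scaffold, followed the ATPases, with 9.70, 10.55, 10.50, 10.17, 10.10 and 9.82 over days 0, 2, 4, 7, 12 and 18. It was 1.80-fold higher at day 2 than at day 0, and 1.66-fold lower at day 18 than at day 2. A second probe gave 0.97 and -0.23 for these 2 differences, so the second difference passed 1.5-fold on the brighter probe alone. Psmd3, another lid subunit, had 5.01, 5.86, 5.17, 5.65, 5.15 and 5.22 on days 0, 2, 4, 7, 12 and 18. Days 2 and 7 stood above its neighbours, but the day 0 value lay close to that array's lowest detected signal of 4.88.

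Psmd7, the lid partner of the deubiquitinase Psmd14, had 10.86, 10.86, 10.80, 10.05, 10.24 and 9.93 on days 0, 2, 4, 7, 12 and 18. The first 3 libraries were level, and the last 3 were lower, with day 18 at 1.91-fold below day 0. The probes of Psmd7 did not give 1 course: for day 18 against day 0 the brightest gave -0.93 and the others -0.34 and -0.59, and for day 2 against day 0 they gave 0.01, 0.57 and -0.38. Psmd14, which removes ubiquitin chains from substrates, was lowest at day 0 (8.09) and lay between 8.44 and 8.67 on the later days.

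Together the 16 detected genes of the 19S particle had a median of 0.35 at day 2 against day 0, with 14 above 0, and of -0.46 at day 18 against day 2, with 15 below 0 and 7 lower at 1.5-fold (43.8%; 16.1% of all genes). Under 3 alternative scalings these medians were 0.09 to 0.55 and -0.23 to -1.49. The count of 7 did not hold with scaling on reference genes, where 3 of all 39 members (7.7%) were lower at 1.5-fold, against 10.7% of all genes. The 12 detected genes of the 20S core had medians of 0.15 and -0.20, with 1 lower at 1.5-fold; the first turned to -0.04 with scaling on T cell identity genes, against -0.37 over all genes, and the second to 0.06 with scaling on reference genes, against 0.32 over all genes. The difference between the particles was not tested. With day 4 in place of day 2, 3 of the 16 (18.8%) passed 1.5-fold, against 14.2% of all genes.

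Among the assembly chaperones, Psmg2 and Psmg3 had lower signals at days 7 to 18 than at day 0 on their brightest probes. Psmg2, which pairs with Psmg1 to build the alpha ring, had log2 signals of 10.09, 9.77, 9.48, 9.11, 9.40 and 9.41 over days 0, 2, 4, 7, 12 and 18. Day 0 was the highest library and day 7 the lowest, 1.97-fold below it. The other probes of Psmg2 gave 0.34 and -0.34 for day 18 against day 0, beside -0.68 for the brightest, so the direction at day 18 was not shared by its probes.

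Psmg3, part of another chaperone pair of the alpha ring, had 9.03, 9.11, 8.95, 8.26, 8.38 and 8.28 on days 0, 2, 4, 7, 12 and 18. Days 0 to 4 and days 7 to 18 did not overlap, and day 18 was 1.68-fold below day 0. This division was read from the values, and the share of all genes divided alike was not counted. Psmd5, a chaperone of the 19S base, had 6.40, 6.53, 6.35, 6.44, 6.54 and 5.97 in the order of days, with day 18 apart from the rest. Over the 5 detected chaperones the median was 0.04 at day 2 and -0.43 at day 18 against day 0, where 5 of 5 were negative. The day 18 median was -0.42, -0.44 and -1.94 under 3 alternative scalings, while the day 2 median turned to -0.21 with scaling on reference genes and -0.45 with scaling on T cell identity genes, against -0.14 and -0.37 over all genes.

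Psme1 and Psme2 encode the partners of the interferon-inducible activator ring. Psme1 had 12.29, 11.89, 11.89, 11.96, 12.45 and 12.48 over days 0, 2, 4, 7, 12 and 18. Psme2 had 8.24, 8.16, 7.82, 7.94, 8.49 and 8.37 on the same days. On these probes both were lower at days 2 to 7 than at days 0, 12 and 18. The narrowest gap, Psme2 at day 2 against day 0, was -0.09, well within the probe disagreement of 0.435. This split was read from the values, and the share of all genes split alike was not counted. On the second probe of Psme1, day 7 (11.09) lay above day 0 (10.99). By its brightest probe, Psme1 was higher at day 18 than at day 2 by 0.59, where the second gave 0.76. With the arrays scaled on T cell identity genes, Psme1 turned to -0.33 in that comparison, against a median of -0.95 over all genes.

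Psme3, a nuclear activator, had 10.06, 10.16, 10.36, 9.82, 9.98 and 9.86 on days 0, 2, 4, 7, 12 and 18, so it was highest at day 4, when Psme1 and Psme2 were low. The activator Psme4 and the inhibitor Psmf1 had ranges of 0.33 and 0.45, both with their highest signal at day 0. Psmc3ip, which has no role in the proteasome, ran between 8.47 and 9.12, with day 18 lowest.

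Of 14 members with at least 2 probes detected in all 6 libraries, all probes of a gene had the same sign in 10 at day 2 against day 0 and in 12 at day 18 against day 2. The widest gap between probes of 1 gene was 0.95 (Psmd7) in the first comparison and 0.78 (Psmg2) in the second, and the median gap was 0.26 and 0.20. The second probe of Psmc4 gave 1.30 at day 2 against day 0, past 2-fold and above the 0.55 of the brightest, and that of Psmc5 gave 0.67.

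Other genes of the pathway were described from lists of the ubiquitin and proteasome system. Psmg1, the partner of Psmg2, had 8.61, 8.83, 8.52, 8.27, 8.39 and 7.60 over days 0, 2, 4, 7, 12 and 18, and was lower at 2-fold at day 18 against both day 2 (-1.23) and day 0 (-1.0). Pomp, the maturation factor of the 20S core, had 12.20, 12.63, 12.80, 12.26, 12.26 and 12.09, and so was highest at days 2 and 4. Among 14 detected proteasome-associated factors the median was 0.09 at day 2 against day 0, with 1 higher and 1 lower at 1.5-fold (7.14% each), against 15.2% and 17.1% of all genes. The one higher was Uchl5, a deubiquitinase of the 19S particle (0.77), and the one lower was Fbxo7, an F-box protein that binds Psmf1 (-1.18).

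Fbxo7 had 6.89 at day 0 and 5.71 to 6.35 on days 2 to 18. Ubqln4, a ubiquitin shuttle, had 7.77 to 7.97 at days 0 to 4 and 6.88 to 7.12 at days 7 to 18, the same division of days as Psmg3. Zfand2a, a stress-induced proteasome-binding protein, had 7.97, 8.01, 8.50, 8.92, 8.34 and 8.85 on days 0, 2, 4, 7, 12 and 18. At day 18 against day 2 the associated factors had a median of -0.23, with 1 higher (Zfand2a, 0.85) and 3 lower at 1.5-fold, which were Uchl5 (-0.60), Ubqln4 (-0.74) and Adrm1, a ubiquitin receptor of the 19S particle (-0.66), against 17.5% and 16.1% of all genes.

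Of the factors that drive proteasome gene transcription, 7 of 10 were detected in at least 1 library. Nfe2l1 had 8.53, 8.87, 8.82, 8.68, 8.64 and 9.0 over days 0, 2, 4, 7, 12 and 18, a difference from day 0 of 0.34 at day 2 and 0.47 at day 18. Nfe2l2, its relative in the oxidative stress response, had 6.06, 5.77, 5.36, 5.10, 5.33 and 4.87, the last of them undetected. Nfyb, a subunit of NF-Y, was 9.26 at day 2, against 8.56 at day 0, and Maff, a small partner of both Nfe2l factors, was detected at day 2 alone (5.04). At day 2 against day 0, 2 of 7 were higher at 1.5-fold, Nfyb and the small Maf gene Mafg (0.60), and 0 lower, against 15.2% and 17.1% of all genes.

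Among the 8 genes of the segregase Vcp and its cofactors, which extract ubiquitin-tagged proteins, 2 were higher and 0 lower at 1.5-fold at day 2 against day 0, against 15.2% and 17.1% of all genes, with a median of 0.08. They were Ubxn7 (6.10 at day 2, against 5.34 at day 0) and Nsfl1c (9.52, against 8.91), and Ufd1 had its high values of 6.77 and 6.72 at days 4 and 7. Among 9 detected genes of ubiquitin and its activating and conjugating enzymes, 3 were higher (Rps27a, Ube2d3 and Ube2k, another conjugating enzyme, with 0.74) and 0 lower against the same shares of all genes, with a median of 0.13. Rps27a, a ribosomal fusion that supplies ubiquitin, had 10.83, 11.49, 11.21, 10.23, 10.73 and 10.54 on days 0, 2, 4, 7, 12 and 18. The conjugating enzyme Ube2d3 was 8.83 at day 0 and 9.69 to 9.94 on the later days, while Ube2n, another conjugating enzyme, had 5.66 at day 18, against 6.89 at day 0. With scaling on T cell identity genes the day 2 medians of the associated factors, the Vcp group and the ubiquitin group turned to -0.22, -0.22 and -0.26, against -0.37 over all genes, and with scaling on reference genes that of the ubiquitin group turned to -0.02, against -0.14.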

How the data were processed

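Total RNA of 6 samples was labelled with biotin and hybridised to Illumina bead arrays, per the labels' protocols. The label protocol names MouseRef-8, whereas the table holds 45281 probes. The authors deposited an intensity for each probe and array without normalization, exported with GenomeStudio, together with the detection p-value of each, per the file headers. They also deposited normalized intensity values, by a method that the sources used here do not give (column medians of 3.1, lowest value -12.4). No per-sample column was left unused.

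The function neqc (limma 3.58.1, R 4.3.3) removed background estimated with the help of the detection p-values, added an offset of 16, made the quantiles of the arrays equal and returned log2 values. Python 3.11.15, numpy 2.4.6, pandas 2.3.3 and matplotlib 3.10.9 did the rest. Each gene was read from the probe with the highest mean normalized signal. Names were matched to RefSeq GRCm38.p6 symbols or unique synonyms, for names only. Median signals were 87.2 to 93.4 per array, and the number of arrays limits the precision. With 1 library per time point no test was made. The call rule was checked on simulated data with noise smaller than the probe disagreement. That check cannot show how often unchanged genes pass 1.5-fold in these libraries.

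The members and lists were chosen with earlier results of these data known. Values in each library were given for the 3 widest ranges in each role, the 3 catalytic subunits, any member called at 2-fold and those not detected throughout; for pathway lists, the 3 widest ranges, the immunoproteasome subunits, Nfe2l1 and Pomp. Psmg1, Psmd14, Psmc3, Psmc5, Psmc3ip, Psmd2 and Psmd8, Psme4, Psmf1, Uchl5, Adrm1, Mafg, Ube2k and the B cell, CD8 T and natural killer cell markers were named after their values were seen. Summed marker signals are linear normalized signals less the offset. Alternatives changed the scaling (array medians, 11 reference genes or 12 T cell identity genes), the background (none removed, or an offset of 50), the values (the deposited normalized ones), the detection p-value (below 0.05), the members (those detected throughout), the probes (their mean, or the brightest by raw signal) and the arrays (without day 0). Chosen after seeing the data were the count of 2-fold ranges, its repeats without day 0 or day 2, the background of bright genes and the comparison of day 18 with day 4. A planned comparison of protein sequences was not made.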

Additional observations from a re-analysis of the deposited data

How the results depend on the processing

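No paired analysis was possible because each time point has 1 library. Over the comparisons of days 2 to 18 with day 0 and of day 18 with day 2, 270 of 317 recomputed medians and counts stayed within the probe disagreement or within 1.5 times the count, and 47 did not. The probe disagreement was wider than each reported median of the members, so a median could change sign and still count as staying. At day 2 against day 0 it went from 0.12 to -0.13 with scaling on T cell identity genes. The deposited values and the brightest probes by raw signal gave nearly the reported medians, so their agreement adds little. With median scaling, members higher at 1.5-fold numbered 8, 2, 1 and 4 on days 2, 7, 12 and 18 against day 0 (reported 4, 1, 0 and 0), 0 were lower at day 4 (reported 1), 1 was lower at 2-fold at day 18 against day 2, and 1 had a 2-fold range (reported 0 each). With scaling on reference genes, 2, 2, 2 and 4 were higher at 1.5-fold at days 4, 7, 12 and 18 against day 0 (reported 6, 1, 0 and 0), 2 and 1 were lower at days 4 and 12 (reported 1 and 3), and at day 18 against day 2, 2 were higher and 3 lower (reported 1 and 9). With scaling on T cell identity genes, 0 were higher at 1.5-fold on days 2, 4 and 7 or between days 18 and 2, and 1, 32, 38, 38 and 38 were lower on days 2, 4, 7, 12 and 18, and 37 between days 18 and 2. At 2-fold 17, 37, 28 and 35 were lower on days 4, 7, 12 and 18 and 34 between days 18 and 2. The medians there were -0.94, -1.55, -1.21, -1.45 and -1.35, against -1.21, -1.63, -1.36, -1.34 and -0.95 over all genes, and 37 members had a 2-fold range. That scaling also turned Psmb5, Psmc1, Psmc4 and Psmd12 at day 4 against day 0 to -0.36, -0.53, -0.45 and -0.30, Psmd3 at day 7 to -0.97 and Psme1 at day 18 against day 2 to -0.33. Without background correction 3 were higher and 0 lower at day 4 against day 0, and 0 were higher either at day 7 or between days 18 and 2. An offset of 50 also left 0 higher in the last 2. A detection p-value below 0.05 gave 1 higher at day 18 against day 0. The mean of a gene's probes gave 0, 1 and 2 lower at days 4, 12 and 18 (reported 1, 3 and 4) and 2 higher at day 7. The cause of these changes was not tested. Of 1220 values of named members, 1094 stayed within the probe disagreement and 120 moved further. In both groups a change of sign was not counted for values not called at 1.5-fold. The other 6, the ones above, were called at 1.5-fold and turned. Of the members, 5 are not well above background on these arrays.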
